A study of Homo sapiens with 4 samples.

Results

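The 47 genes described here encode ligands, receptors, SMAD proteins, inhibitors and targets of TGF-beta, BMP and activin signalling. They were taken by symbol from a list of names that was chosen with earlier results of these data known. All 47 had a row among the 30863 genes of the table. The RNA came from HepG2, an established human liver cancer line that the labels call hepatoblastoma, with the genotype given as WT. The AMF group has 2 libraries of cells given AMF for 48 h, and the DMSO group has 2 libraries of cells given the solvent DMSO for 48 h. AMF is taken as amentoflavone, a plant biflavonoid, from the series title. One protocol has 90 µM AMF and the design text has 80 µM of an agent named Tub B, so the compound and its dose are uncertain and AMF stands for the group so labelled. All cells grew in DMEM with fetal bovine serum. Nothing in the labels ties replicates 1 and 2 to separate cultures, and p-values here rest on a spread between libraries that could be technical alone.

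TGF-beta, activins and BMPs are secreted dimers that bind a pair of type II and a pair of type I serine/threonine kinase receptors. TGF-beta and activin receptors phosphorylate SMAD2 and SMAD3, BMP receptors phosphorylate SMAD1, SMAD5 and SMAD9, and both kinds of SMAD enter the nucleus with SMAD4. In liver, BMP6 drives hepcidin, TGF-beta restrains hepatocyte growth and promotes fibrosis, and follistatin is a hepatocyte product that binds activin. Transcript levels do not show receptor activity or SMAD phosphorylation.

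Library totals ran from 24226586 to 26966210 reads. The share of reads on genes of the mitochondrial genome was 9.53% and 9.61% in AMF, and 7.73% and 7.69% in DMSO. All 9 hepatocyte markers were detected, and their sum was 266688 to 285048 normalized counts in AMF and 311393 to 333418 in DMSO. They did not move together: AFP, TF and APOA1 fell (log2 changes -0.61, -0.965 and -0.582), HNF4A (0.863) and APOA2 (0.346) rose, and ALB (-0.022) did not pass. Of 8 fibroblast and stellate markers, 5 had under 10 reads in every library (COL1A2, COL3A1, DCN, LUM and THY1). The sum of those 8 was 1210 to 1227 in AMF and 971 to 974 in DMSO, most of it ACTA2. COL1A1 and PDGFRB went the other way. COL1A1 had 5.57 and 8.24 in AMF and 116 and 86.2 in DMSO, and PDGFRB had 26.0 and 13.4 in AMF and 94.0 and 107.8 in DMSO. Of 5 endothelial markers, 3 had under 10 reads in every library, and the sum was 292 to 320 in AMF and 159 to 188 in DMSO, most of it PECAM1. Of the 4 blood markers with a row, CD3E, CD68 and HBB had under 10 reads in every library, and LYZ carried the sum, which was 17448 to 18395 in AMF and 24593 to 25206 in DMSO. In bulk RNA, fewer cells with a transcript and less of it per cell cannot be told apart.

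Of the 8 type I and type II receptors, 7 were lower in AMF than in DMSO, as were several inhibitors of the pathway, while BMP4, BMP6, endoglin (ENG), ID2 and the latency proteins LTBP2 and LTBP4 were higher. A normalized count is a gene's reads over the size factor of that library. Changes are log2 fold changes of AMF over DMSO, and a gene is said to have risen or fallen where the limma adjusted p was under 0.05. Of the 47 members, 45 reached the mean of 1 normalized count needed for the test, and INHBA and NOG did not. Of these 45, 8 rose, 20 fell and 17 did not pass, and the 8 include SNAI2, which had no read in DMSO and reached the minimum only through AMF. That is 62.2% called, against 31.8% of all 23828 genes tested. Members that rose made up 17.8%, against 15.6% of all genes, and members that fell 44.4%, against 16.2%. Since calls are more frequent at higher levels, the 38 members with a mean of at least 100 were also set beside the 11137 genes at that level. There 18.4% of members rose, against 23.6% of genes, and 52.6% fell, against 31.1%, so that 71.1% were called, against 54.7%. The median log2 change was -0.25 over the 45 members and 0.035 over all genes tested. Among those with a mean of at least 100 it was -0.27 for members and -0.040 for all genes. AMF and DMSO libraries did not overlap for 84.4% of the 45 members, against 63.4% of all genes, and for 86.8% of the 38, against 79.9%. The last pair of shares lie close to each other, so groups apart, as given for members below, were usual at that level.

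Single libraries bore on the calls but not on their direction. No member past the threshold changed sign in any of the 15 alternatives, and none had its fold moved by over 1.5 times when limma-trend was run with a library left out. Without AMF replicate 1 or without AMF replicate 2, limma-trend called 0 members and 0 genes, although 30 and 27 members had an unadjusted p under 0.05 and 6575 and 6387 genes did. The prior degrees of freedom of the fit were 11.9 with all libraries, and 0.995 and 1 there. With voom, a weighted limma fit on the recovered reads, 18 of the 28 called members passed without AMF replicate 1 and 21 without AMF replicate 2. Of the 28, 23 passed with limma-trend without DMSO replicate 1 and 20 without DMSO replicate 2. In each alternative other than limma-trend without an AMF library, 16 members passed, namely TGFB1, TGFBR1, TGFBR3, BMPR1A, BMP4, SMAD9, SKI, SKIL, ID1, ID2, FST, FSTL3, LTBP2, LTBP3, LTBP4 and ENG.

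**Figure D1:**
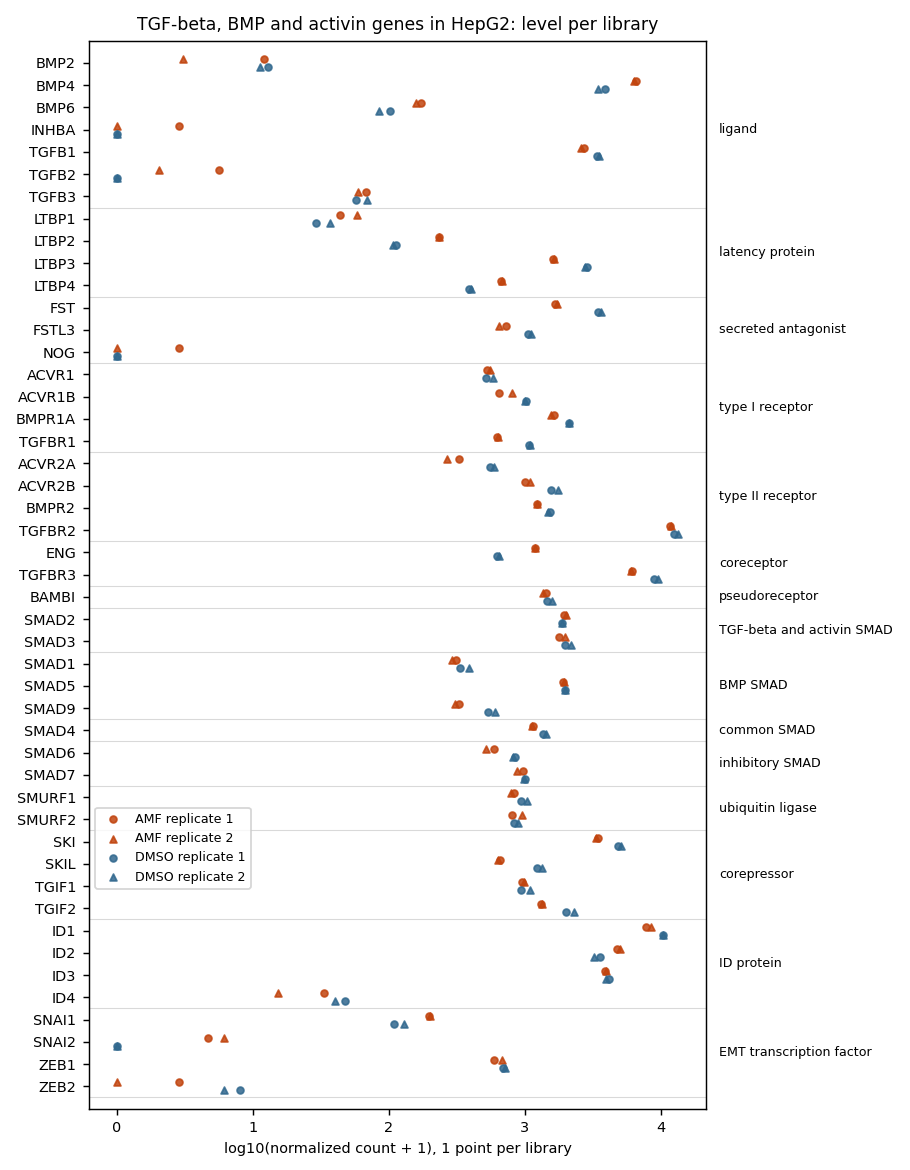
Normalized counts of the 47 members as log10(normalized count + 1), 1 point per library, with AMF above DMSO in each row and the role at the right. AMF points lie left of DMSO points for most receptors and corepressors, and right of them for BMP4, ENG and LTBP2.

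Among the 7 ligands of the member list, the BMP genes that were well detected rose and TGFB1 fell. BMP4, a BMP that patterns the embryo and acts in liver development, had 6628 and 6338 normalized counts in AMF, against 3908 and 3453 in DMSO. BMP4 thus rose by 0.82 on the log2 scale (SE 0.0563, limma adjusted p = 5.64e-08), and its groups did not overlap. BMP6, which liver endothelial cells make in the body to control iron, had 172 and 157 in AMF, against 101 and 84.2 in DMSO. It rose by 0.82 (SE 0.163, adjusted p = 0.0012), and its call ended without AMF replicate 1 (voom adjusted p = 0.0718), without AMF replicate 2 (voom adjusted p = 0.051) and without DMSO replicate 2 (limma-trend adjusted p = 0.0712), in a range of 1.90e-05 to 0.192 over its alternatives. TGFB1, the main TGF-beta of fibrosis, had 2708 and 2585 in AMF, against 3423 and 3503 in DMSO. TGFB1 fell, with a log2 change of -0.39 (SE 0.0499, adjusted p = 2.77e-05). Its exons overlap 6.6% with HNRNPUL1 on the opposite strand in GENCODE, and HNRNPUL1 had 7106 and 7108 in AMF and 9147 and 8965 in DMSO, so without strand some reads may belong to either gene. Per kilobase of principal transcript, BMP4 stood at 3382 in AMF and 1920 in DMSO, and TGFB1 at 956 in AMF and 1251 in DMSO. Those were the highest levels per length of the 7 ligands in each group.

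The other ligands were scarce. TGFB3 had 66.9 and 58.7 normalized counts in AMF and 56.0 and 67.8 in DMSO, which overlap (log2 change 0.02, adjusted p = 0.951). BMP2 had 14 reads over both AMF libraries and 22 over both DMSO libraries, a ratio of 0.614 with an exact 95% interval of 0.29 to 1.25, and did not pass (adjusted p = 0.288). TGFB2 had 6 reads in AMF and 0 in DMSO, at least 1.93-fold higher if the DMSO group is set to 3 reads in all, and did not pass (adjusted p = 0.184). INHBA, which encodes the activin A subunit, had 2 reads in AMF and 0 in DMSO and was not tested. TGFB2 and SNAI2, described below, reached the minimum mean only through their AMF reads.

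Latency proteins bind TGF-beta before its release and tie it to the matrix, except LTBP2, which binds no TGF-beta. Their members went in opposite directions. LTBP3 had 1603 and 1640 normalized counts in AMF, against 2863 and 2792 in DMSO, and fell (log2 change -0.80, SE 0.0529, adjusted p = 3.75e-08). LTBP4 had 670 and 678 in AMF, against 386 and 398 in DMSO, and rose by 0.78 (SE 0.0823, adjusted p = 4.25e-06). LTBP2 had 235 and 234 in AMF, against 112 and 106 in DMSO, and rose by 1.10 (SE 0.137, adjusted p = 1.99e-05). Replicates of these 3 genes lay close together and the groups were apart. LTBP1 was low, with 42.7 and 57.7 in AMF and 28.0 and 35.9 in DMSO, and did not pass (0.63, adjusted p = 0.116). Summed over LTBP1 to LTBP4, the counts were 2551 and 2609 in AMF and 3389 and 3332 in DMSO.

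Both secreted antagonists that were tested fell, beside 16.2% of all genes tested and 31.1% of those with a mean of at least 100. Follistatin (FST), which binds activins and keeps them from their receptors, had 1658 and 1713 normalized counts in AMF, against 3467 and 3635 in DMSO. FST thus had a log2 change of -1.07 (SE 0.0527, adjusted p = 1.88e-09), the lowest adjusted p among the 45 members. FSTL3, a follistatin relative that also binds activins, had 725 and 644 in AMF, against 1051 and 1116 in DMSO (log2 change -0.66, SE 0.0772, adjusted p = 1.06e-05). Noggin (NOG), a BMP antagonist, had 2 reads in AMF and 0 in DMSO and was not tested.

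Of the 8 type I and type II receptors, 0 rose, 7 fell and 1 did not pass. The 87.5% that fell stand beside 16.2% of all genes tested and 31.1% of those with a mean of at least 100. In the type I class, TGFBR1, the TGF-beta signalling kinase, had 629 and 639 normalized counts in AMF, against 1065 and 1090 in DMSO (log2 change -0.76, SE 0.0694, adjusted p = 9.38e-07). BMPR1A, a BMP receptor of hepatocytes, had 1632 and 1565 in AMF, against 2129 and 2131 in DMSO (-0.41, SE 0.0553, adjusted p = 3.90e-05). ACVR1B, the activin type I receptor, had 650.0 and 811 in AMF, against 1012 and 996 in DMSO (-0.47, SE 0.0912, adjusted p = 0.00106). The 2 AMF values of ACVR1B were farther apart than those of the other type I receptors, and its change was -0.63 without AMF replicate 2 and -0.31 without AMF replicate 1. The ACVR1B call ended with limma-trend without DMSO replicate 1 (adjusted p = 0.168) or DMSO replicate 2 (0.159), and with voom without AMF replicate 1 (0.0743), in a range of 2.06e-08 to 0.168. ACVR1, a type I receptor for BMPs, had 531 and 554 in AMF and 522 and 581 in DMSO, which overlap (-0.02, adjusted p = 0.883).

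In the type II class, ACVR2A, which binds activins and BMPs, had 329.6 and 269 normalized counts in AMF, against 554 and 590.3 in DMSO (log2 change -0.94, SE 0.107, adjusted p = 8.44e-06). Its exons overlap 6.4% with ORC4 on the opposite strand, which had 865 and 975 in AMF and 998 and 988 in DMSO. ACVR2B, its close relative, had 1011 and 1093 in AMF, against 1562 and 1741 in DMSO (-0.65, SE 0.0698, adjusted p = 5.07e-06). BMPR2, the BMP type II receptor, had 1230.3 and 1226 in AMF, against 1536 and 1486 in DMSO (-0.30, SE 0.0596, adjusted p = 0.00126). These 3 genes had no overlap between the groups. The ACVR2A call ended with limma-trend without DMSO replicate 2 (adjusted p = 0.0556), that of ACVR2B with voom without AMF replicate 1 (0.0522), and that of BMPR2 with voom without AMF replicate 1 (0.0668) or AMF replicate 2 (0.0641). Over their alternatives adjusted p reached at most 0.112 for ACVR2A, 0.142 for ACVR2B and 0.13 for BMPR2. TGFBR2, the TGF-beta binding receptor, had 11681 and 11985 in AMF, against 12478 and 13466 in DMSO (-0.13, SE 0.0432, adjusted p = 0.0307). Its change was the smallest of the 28 calls, and the call ended with library totals as scaling (adjusted p = 0.0686), with a pseudocount of 0.1 (0.0623) and with no filter (0.0762), in a range of 5.43e-08 to 0.44. Without DMSO replicate 2, TGFBR2 had a change of -0.08 and an adjusted p of 0.21, and with voom the call also ended without AMF replicate 1 (0.44) or AMF replicate 2 (0.278). Per kilobase it was the highest receptor of the 8, at 2561 in AMF and 2807 in DMSO, while the other 7 lay between 52.2 and 178 in AMF and between 99.9 and 220 in DMSO.

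Coreceptors present ligand to the kinases. Betaglycan (TGFBR3), which also holds inhibins, had 6186 and 6076 normalized counts in AMF, against 8907 and 9571 in DMSO (log2 change -0.59, SE 0.0449, adjusted p = 1.54e-07). ENG (endoglin), best known from endothelium, where it favours BMP9 signalling, had 1193 and 1197 in AMF, against 623 and 649 in DMSO, and rose by 0.91 (SE 0.0686, adjusted p = 1.42e-07). Beside this rise stand the endothelial markers given above: KDR, TEK and CDH5 were near 0, PECAM1 had 289 and 277 in AMF and 145 and 185 in DMSO, and VWF had 24.1 and 11.3 in AMF and 8.0 and 1.03 in DMSO. PECAM1 and VWF thus moved with ENG, and their part in the result was not tested. Exons of ENG overlap 8.0% with an antisense transcript, AL162586.1, which has no row of its own. BAMBI, a receptor decoy without kinase, had 1430.0 and 1371 in AMF and 1458 and 1581 in DMSO and did not pass (-0.12, adjusted p = 0.187).

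**Figure D2:**
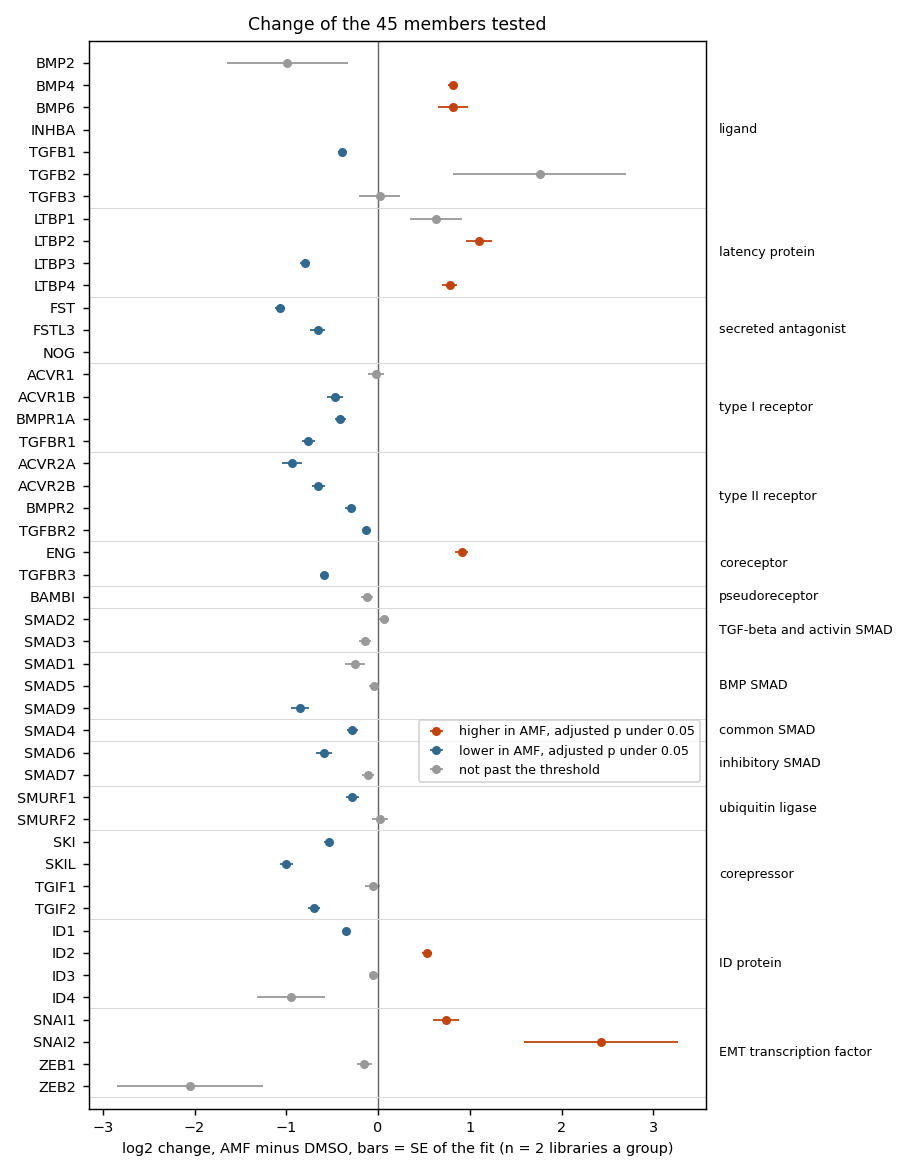
Log2 change of AMF over DMSO for the 45 tested members, ordered by role, with bars for the SE of the fit and colours for the call. Type I and type II receptors lie at or left of 0, corepressors at or left of 0, and the 4 latency proteins on both sides.

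Receptor SMADs carry the signal from the kinases to the nucleus. Of 5 receptor SMADs, 0 rose, 1 fell and 4 did not pass. SMAD9, a SMAD of the BMP branch, had 326 and 305 normalized counts in AMF, against 539 and 602 in DMSO (log2 change -0.85, SE 0.095, adjusted p = 7.23e-06). SMAD5 had 1899 and 1955 in AMF and 1983 and 1968 in DMSO (-0.04, adjusted p = 0.669), and SMAD1 had 310.1 and 288 in AMF and 331 and 385 in DMSO (-0.25, adjusted p = 0.0937). In the TGF-beta and activin branch, SMAD2 had 1927 and 2001 in AMF and 1882 and 1888 in DMSO (0.06, adjusted p = 0.465). SMAD3 had 1775 and 1986 in AMF and 1976 and 2179 in DMSO, which overlap (-0.14, adjusted p = 0.124). With voom without DMSO replicate 1, SMAD1 (adjusted p = 0.0384, range 0.0384 to 0.624) and SMAD3 (0.00772, range 0.00772 to 0.802) did pass. SMAD4, the shared partner, had 1154 and 1136 in AMF, against 1363 and 1425 in DMSO, and fell (-0.28, SE 0.0616, adjusted p = 0.00244). The call of SMAD4 ended without DMSO replicate 2 (limma-trend adjusted p = 0.0633) and, with voom, without AMF replicate 1 (0.0948) or AMF replicate 2 (0.102), in a range of 2.19e-04 to 0.154.

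Of the 9 members that restrain the pathway in the cell, BAMBI and the corepressors below included, 0 rose, 5 fell and 4 did not pass. The 55.6% that fell stand beside 16.2% of all genes tested and 31.1% of those with a mean of at least 100. In the wider list below, SMAD partners and modifiers went both ways, and the receptor-binding proteins STRAP and FKBP1A rose. SMAD6, an inhibitory SMAD that acts mainly on BMP signals and is itself a BMP target, had 589 and 514 normalized counts in AMF, against 842 and 817 in DMSO (log2 change -0.59, SE 0.0831, adjusted p = 6.23e-05). Its call ended with limma-trend without DMSO replicate 1 (adjusted p = 0.0632) and without DMSO replicate 2 (0.0568), in a range of 3.43e-11 to 0.112. SMAD7, the inhibitory SMAD of TGF-beta receptors, had 964 and 881 in AMF and 1007 and 986 in DMSO (-0.11, adjusted p = 0.258). SMURF1, a ubiquitin ligase that targets SMADs and receptors, had 836 and 797 in AMF, against 945 and 1035 in DMSO (-0.28, SE 0.0727, adjusted p = 0.00878). Exons of SMURF1 overlap 11.7% with TRRAP on the opposite strand, which had 2367 and 2510 in AMF and 3085 and 3321 in DMSO. The SMURF1 call ended without DMSO replicate 1 (adjusted p = 0.0565) and without DMSO replicate 2 (0.13), and with voom without AMF replicate 1 (0.149) or AMF replicate 2 (0.211), in a range of 0.00119 to 0.265. SMURF2 had 803 and 953 in AMF and 839 and 885 in DMSO, which overlap (0.02, adjusted p = 0.875).

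Of the 4 nuclear corepressors, which hold SMAD complexes silent on DNA, 3 fell. That is 75.0%, against 16.2% of all genes tested and 31.1% of those with a mean of at least 100. SKIL (SnoN), itself a direct TGF-beta target, had 657 and 629 normalized counts in AMF, against 1235 and 1343 in DMSO (log2 change -1.0, SE 0.0715, adjusted p = 8.27e-08). SKI, its relative, had 3466 and 3368 in AMF, against 4816 and 5129 in DMSO (-0.54, SE 0.0486, adjusted p = 8.62e-07). TGIF2, a homeodomain repressor, had 1320 and 1328 in AMF, against 2007 and 2306 in DMSO (-0.70, SE 0.0672, adjusted p = 1.65e-06). AMF and DMSO values did not overlap for these 3. The TGIF2 call ended with voom without AMF replicate 1 (adjusted p = 0.052, at most 0.151 over its alternatives). TGIF1, the relative of TGIF2, had 956 and 983 in AMF and 936 and 1098 in DMSO, which overlap (-0.06, adjusted p = 0.594).

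ID proteins are inhibitors of basic helix-loop-helix transcription factors and are classic BMP targets, induced through SMAD1 and SMAD5. They did not move as a group. ID1 had 7812 and 8405 normalized counts in AMF, against 10306 and 10329 in DMSO, and fell (log2 change -0.35, SE 0.0437, adjusted p = 2.17e-05). ID2 had 4780 and 5009 in AMF, against 3549 and 3247 in DMSO, and rose by 0.53 (SE 0.0526, adjusted p = 2.44e-06). ID1 and ID2 libraries were each apart by group, in opposite directions. ID3 had 3862 and 3964 in AMF and 4131 and 3964 in DMSO (-0.05, adjusted p = 0.484). ID4 was low, with 32.5 and 14.4 in AMF and 47.0 and 39.0 in DMSO, and did not pass (-0.95, adjusted p = 0.0688), although it did with voom (adjusted p = 0.0457) and with a mean of at least 10 (0.0348), in a range of 0.021 to 0.453. The sum of the 4 genes was 16487 and 17392 in AMF and 18032 and 17580 in DMSO. Exons of ID2 overlap 1.7% with ID2-AS1 on the opposite strand, which had 92.9 and 80.4 in AMF and 42.0 and 30.8 in DMSO.

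The bases just before the start of ID1 and ID2, the pair that moved apart, and of BMP4, the ligand that rose, are shown to let the windows be compared. They run 5′ to 3′ on the gene's strand, from RefSeq on GRCh38.p14, over the 250 bases before the start. ID1 is at chr20:31605039-31605288 (+), ID2 at chr2:8681806-8682055 (+) and BMP4 at chr14:53955051-53955300 (-). Capitals mark GGCGCC, a core of BMP response elements, and GCGTG, the core that the dioxin receptor binds, on either strand, so that CACGC is GCGTG read on the other strand. CAGACA, a SMAD element, was also searched and is in none of the 3.
ID1: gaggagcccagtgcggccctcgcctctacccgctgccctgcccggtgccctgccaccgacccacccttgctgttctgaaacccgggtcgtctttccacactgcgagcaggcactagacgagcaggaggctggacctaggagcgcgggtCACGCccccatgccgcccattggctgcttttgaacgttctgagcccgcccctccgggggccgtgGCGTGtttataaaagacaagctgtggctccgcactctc
ID2: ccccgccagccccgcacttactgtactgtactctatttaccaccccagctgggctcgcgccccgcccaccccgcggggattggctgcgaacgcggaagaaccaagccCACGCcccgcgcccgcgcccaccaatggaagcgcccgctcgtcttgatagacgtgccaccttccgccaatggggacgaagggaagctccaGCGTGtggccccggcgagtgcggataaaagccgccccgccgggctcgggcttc
BMP4: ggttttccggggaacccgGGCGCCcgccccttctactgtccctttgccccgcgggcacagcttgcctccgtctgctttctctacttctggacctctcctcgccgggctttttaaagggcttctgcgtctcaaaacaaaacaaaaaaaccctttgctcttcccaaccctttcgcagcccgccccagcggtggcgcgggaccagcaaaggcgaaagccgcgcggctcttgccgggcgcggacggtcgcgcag
Within these 250 bases, the only ones searched, ID1 and ID2 each held GCGTG at 2 places and no GGCGCC. BMP4 held GGCGCC at 1 place there and no GCGTG. These are matches of letters, and they say nothing of binding. Windows were found for 42 of the 47 members. GGCGCC was in 26.2% of them, against 16.1% of all 27305 windows of the same length, CAGACA in 11.9%, against 13.6%, and GCGTG in 38.1%, against 31.9%. By call, GCGTG was in 9 of 19 windows of members that fell, 6 of 16 of those that did not pass and 1 of 6 of those that rose, which was that of ID2. GGCGCC was in 5, 4 and 2 of these windows, and CAGACA in 1, 3 and 1. The median GC content was 73.6% for members that fell, 64.2% for those that did not pass and 66.6% for those that rose, against 69.0% for all members with a window and 58.0% for all windows, and short GC-rich words are met more often in GC-rich windows.

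Among 4 members that drive epithelial-mesenchymal transition, SNAI1 was the well detected one that rose, ZEB1 and ZEB2 did not pass, and SNAI2 had reads in AMF only. SNAI1, a repressor of E-cadherin, had 198 and 201 normalized counts in AMF, against 109 and 129 in DMSO, and rose by 0.74 (SE 0.146, adjusted p = 0.00112). The SNAI1 call ended without DMSO replicate 1 with limma-trend (adjusted p = 0.0586) and with voom without AMF replicate 1 (0.0665) or AMF replicate 2 (0.0677), in a range of 1.77e-05 to 0.19. SNAI2 had 9 reads over both AMF libraries and 0 in DMSO, at least 2.89-fold higher with DMSO set to 3 reads in all, and passed narrowly (adjusted p = 0.0402, range 0.026 to 0.319). Leaving out any 1 library ended the SNAI2 call, with adjusted p from 0.093 to 0.319. ZEB2 had 2 reads in AMF and 12 in DMSO, a ratio of 0.161 with an exact 95% interval of 0.0175 to 0.722, and did not pass (adjusted p = 0.066). ZEB1, the family member that HepG2 expressed, had 593 and 677 in AMF and 694 and 715 in DMSO (-0.15, adjusted p = 0.192). E-cadherin (CDH1), which these factors repress, had 329 and 321 in AMF and 373 and 344 in DMSO (-0.14, adjusted p = 0.326). N-cadherin (CDH2), a mesenchymal marker that hepatocytes also express, had 1811 and 1833 in AMF, against 4166 and 4264 in DMSO, and fell (-1.21, SE 0.0494, adjusted p = 3.10e-10). Vimentin (VIM), an intermediate filament protein of mesenchymal cells, had 1 read over both AMF libraries and 0 in DMSO and was not tested.

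**Figure D3:**
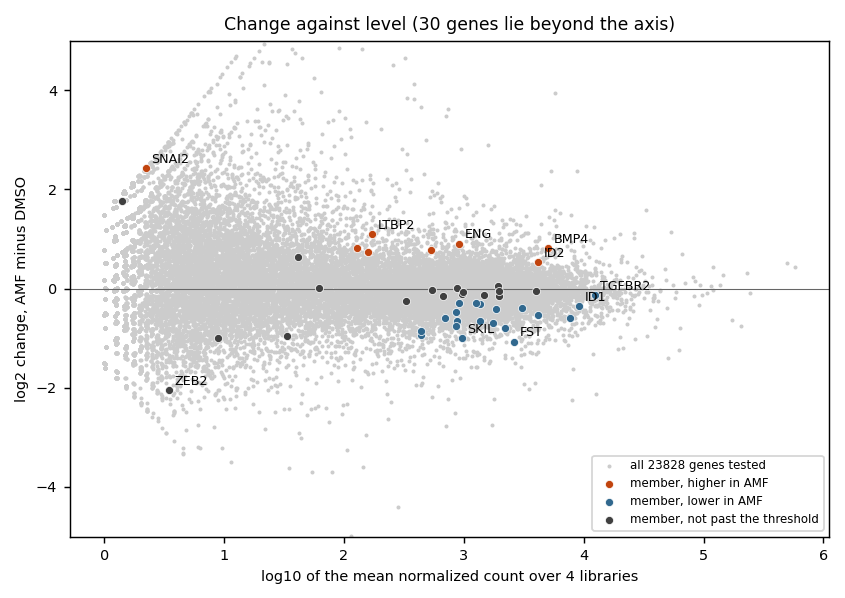
Log2 change of AMF over DMSO against log10 of the mean normalized count, with all 23828 genes tested in grey and the 45 members in colour. Most members lie above a mean of 100, where 20 fell and 7 rose, and 30 genes lie beyond the vertical axis.

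A wider list of 112 pathway genes showed rises and falls in equal number. Of these, 102 had a row and 85 were tested, of which 26 rose, 26 fell and 33 did not pass. That is 61.2% called, against 31.8% of all genes tested and 54.7% of those with a mean of at least 100, and the median log2 change was 0.02. Genes that rose and genes that fell made up 30.6% each. Of all genes tested 15.6% rose and 16.2% fell, and of those at that mean 23.6% and 31.1%. Some of the 85 lie under a mean of 100, so the shares at that mean are not matched to them by level. Of 15 other ligands, 4 rose and 4 fell, which is 26.7% each. Among those with a mean of at least 10, the rises were led by BMP8A (26.0 and 27.8 normalized counts in AMF, against 7.0 and 7.19 in DMSO, log2 change 1.79, adjusted p = 0.00464) and the anti-Müllerian hormone AMH (1.52, adjusted p = 0.0107). The falls were led by INHA, the inhibin alpha subunit (-1.54, adjusted p = 0.00473), and INHBE, an activin subunit made in liver. INHBE had 815 and 748 in AMF, against 1808 and 2503 in DMSO (-1.44, SE 0.11, adjusted p = 1.52e-07). With 1 library left out, the calls of BMP8A, AMH and INHA ended with limma-trend without either DMSO library and with voom without either AMF library, and that of INHBE with voom without AMF replicate 1 (adjusted p = 0.0576) or AMF replicate 2 (0.0602). NODAL, a ligand of the early embryo, lay under that mean, with 10 and 9 reads in AMF and 0 in both DMSO libraries (adjusted p = 0.00312), and passed the filter only through AMF, and its call ended with voom without any 1 library (adjusted p 0.0837 to 0.145). BMP8A has a close copy, BMP8B, so the split of their reads is uncertain. BMP8B had 186 and 183 normalized counts in AMF and 181 and 145 in DMSO and did not pass (0.19, adjusted p = 0.367).

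Of 8 other receptors and coreceptors, 3 rose and 2 fell. These are 37.5% and 25.0%, against 15.6% and 16.2% of all genes tested, and 23.6% and 31.1% of those with a mean of at least 100. RGMB, a BMP coreceptor, had 843 and 872 normalized counts in AMF, against 196 and 242 in DMSO (log2 change 1.97, SE 0.105, adjusted p = 4.41e-09). RGMA, its relative, had 25.1 and 17.5 in AMF, against 2.0 and 11.3 in DMSO (1.86, adjusted p = 0.0335), and its change was 0.84 without DMSO replicate 1 and 2.87 without DMSO replicate 2, both no longer past the threshold (adjusted p = 0.286 and 0.0522). The RGMA call also ended with a pseudocount of 0.1 (0.0941), with no filter (0.105) and with voom without an AMF library, in a range of 0.00291 to 0.505. Neogenin (NEO1), the membrane partner of the RGM proteins, had 334 and 359.5 in AMF, against 655 and 651 in DMSO (-0.91, SE 0.0866, adjusted p = 1.52e-06). TDGF1 (Cripto), a coreceptor for Nodal with processed copies elsewhere in the genome, had 124 and 112 in AMF, against 344 and 357 in DMSO (-1.57, SE 0.125, adjusted p = 2.47e-07).

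Of 12 extracellular modulators, 3 rose and 3 fell. That is 25.0% each, against 15.6% and 16.2% of all genes tested, and 23.6% and 31.1% of those with a mean of at least 100. The BMP antagonist chordin (CHRD) rose by 0.33 (adjusted p = 7.03e-04), and BMP1, the protease that cuts chordin, rose by 0.26 (adjusted p = 0.0128). The integrin subunit ITGAV, part of the integrins that free latent TGF-beta, had 3759 and 4004 normalized counts in AMF, against 6397 and 6525 in DMSO (log2 change -0.74, SE 0.0467, adjusted p = 2.48e-08). Fibrillin-1 (FBN1), which anchors latency proteins in microfibrils, had a change of -0.60 (adjusted p = 0.00489). Of 22 SMAD partners and modifiers in the cell, 5 rose, 9 fell and 8 did not pass. With 22.7% risen and 40.9% fallen, they stand beside the same shares of genes. The receptor-binding proteins STRAP (0.45, adjusted p = 6.45e-06) and FKBP1A (0.44, adjusted p = 1.85e-06) rose. The adaptor DAB2 (-0.88, adjusted p = 0.0039) and the acetyltransferase CREBBP, a SMAD coactivator (-0.65, adjusted p = 5.32e-07), fell. The calls of CHRD, BMP1, FBN1 and DAB2 ended in some fits with 1 library left out, DMSO replicate 1 (limma-trend) and AMF replicate 1 (voom) among them for each, and their adjusted p reached at most 0.176.

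Among 28 known targets of the pathway, 11 were called higher, 8 lower and 9 neither. These are 39.3% higher and 28.6% lower, against 15.6% and 16.2% of all genes tested, and 23.6% and 31.1% of those at a mean of 100 or more. Some of the 28, such as COL1A1 with a mean of 54, lie under 100, so the shares at that mean are not matched by level. The lysyl oxidase LOXL2 had 180 and 198 normalized counts in AMF, against 53.0 and 55.4 in DMSO (log2 change 1.78, SE 0.171, adjusted p = 1.70e-06). ATOH8, a BMP-induced transcription factor of liver, had 195 and 177 in AMF, against 79.0 and 56.5 in DMSO (1.46, SE 0.187, adjusted p = 2.57e-05). COL1A1, a collagen chain induced by TGF-beta, had 5.57 and 8.24 in AMF, against 116 and 86.2 in DMSO (-3.70, SE 0.342, adjusted p = 1.16e-06), and its call ended with voom without AMF replicate 1 (0.054) or AMF replicate 2 (0.0535). VEGFA, which hypoxia also induces, had a change of -1.27 (adjusted p = 1.44e-10). A further 2 targets were chosen after their values were seen, because they are common readouts of the branches. Fibronectin (FN1), a matrix protein and TGF-beta target, had 156650 and 151364 in AMF, against 265383 and 254365 in DMSO (-0.75, SE 0.0335, adjusted p = 6.90e-10). Hepcidin (HAMP), the BMP6 readout of hepatocytes, had 1031 and 828 in AMF and 899 and 729 in DMSO, which overlap (0.19, adjusted p = 0.205), and it passed with voom without DMSO replicate 1 (0.36, adjusted p = 8.52e-04).

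**Figure D4:**
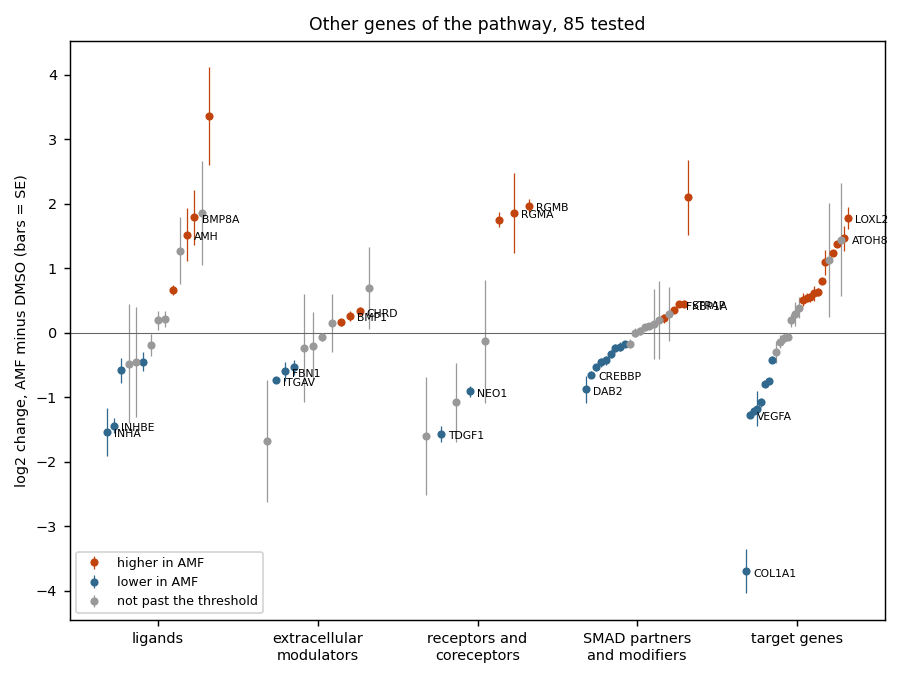
Log2 change of AMF over DMSO with its SE for the 85 other pathway genes tested, in 5 roles and sorted within each, with names beside the leading called rises and falls among genes whose mean reached 10. Each role holds genes on both sides of 0, and COL1A1 (-3.70) lies lowest.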

How the data were processed

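Per the labels' protocols, libraries were made from poly(A) RNA of HepG2 cells with a kit that keeps no strand. The submitters' processing notes list STAR 2.7.0, featureCounts and hg19. Neither the annotation nor the way values were normalized is given in the sources used here. The authors deposited log2 values for 30863 genes in 4 libraries, with a shared lowest value of 6.01. As judged from the values, they are variance-stabilized counts scaled by 1 factor for each library. Undoing it gave normalized counts, and dividing by the worth of 1 read gave whole reads (100.0% of values within 0.01 reads). A read equalled 0.929 to 1.03 normalized counts.

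The deposited values are log2, so the main fit was made on a log scale, and the recovered reads were tested with voom as an alternative. The fit was limma-trend (limma 3.58.1, R 4.3.3) on log2(normalized count + 1) for 23828 genes with a mean of at least 1, with group as its term and Benjamini-Hochberg adjustment over all of them. Fold changes on this scale understate changes of low genes. The members, the lists and the alternatives were chosen with earlier results of these data known. Every member is accounted for, with per-library values for those past an adjusted p of 0.05. Of the other pathway genes, the 2 largest rises and 2 largest falls per role with a mean of at least 10 were named. FN1, HAMP, CDH1, CDH2, VIM, NODAL and BMP8B were named outside that rule. Levels per kilobase used GENCODE 29 principal transcripts, and promoters came from RefSeq (GRCh38.p14), not hg19. Floors (3 reads) and exact 95% binomial intervals cover counting error only, since PCR reads lacking molecular identifiers are no independent molecules. Figures were drawn with matplotlib 3.10.9. One target gene of the wider list is counted there but not reported here by name.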

Additional observations from a re-analysis of the deposited data

How the results depend on the processing

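With all libraries, the counts of called members and genes stayed within 1.5 times of those reported under each alternative run. With 1 library left out, members called higher ranged from 0 to 7 and lower from 0 to 22, all genes from 0 to 3210 higher and from 0 to 3551 lower, and other pathway genes from 0 to 25 higher and from 0 to 26 lower. The 0 calls came from limma-trend without an AMF library. Without those libraries, voom called 2794 (AMF replicate 1) and 2802 genes (AMF replicate 2), and 5 members higher each time, with 13 and 16 lower. The members' median of -0.25 was -0.17 on the deposited log2 scale, which compresses changes of low genes, -0.15 with no filter, which adds 2 scarce members, and -0.29 to -0.11 without 1 library. Signs turned only among members that did not pass: ACVR1 (0.00 with library totals and with voom, -0.10 to 0.08 without 1 library), and without 1 library TGFB3 (-0.11 to 0.20), BMP2 (-2.15 to 0.02), SMAD5 (-0.06 to 0.01), SMURF2 (-0.10 to 0.17) and TGIF1 (-0.18 to 0.08). The cause of these moves was not tested. Same-numbered libraries did not deviate together (r = 0.024 over 11137 genes). With the replicate block, 8 members were higher and 22 lower, and all 28 calls remained, with ID4 and ZEB2 added, and HAMP passed (adjusted p = 0.0422). Among the members and the named pathway genes followed singly through the alternatives, the block changed no other call. BMP8B and the cell type markers other than COL1A1 were not followed singly. With few reads, INHBA, NOG, TGFB2, SNAI2, ZEB2 and BMP2 allow no firm statement at this depth. The voom fits without a library were chosen after seeing the data.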

Other observations

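Ratios within a library remove its scaling. The pairs below were chosen after their values were seen and carry no test. The ratio of BMP4 to TGFB1 normalized counts was 2.45 in each AMF library, and 1.14 and 0.986 in DMSO replicates 1 and 2. FST to BMP4 stood at 0.25 and 0.27 in AMF, and at 0.887 and 1.05 in DMSO. Between relatives, ID2 to ID1 was 0.612 and 0.596 in AMF and 0.344 and 0.314 in DMSO, LTBP4 to LTBP3 was 0.418 and 0.413 in AMF and 0.135 and 0.143 in DMSO, and ENG to TGFBR3 was 0.193 and 0.197 in AMF and 0.0699 and 0.0678 in DMSO. The receptor pair TGFBR1 to TGFBR2 had 0.0538 and 0.0533 in AMF, and 0.0853 and 0.081 in DMSO.

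Over the 45 tested members, the log2 change had a Spearman rho of -0.12 with the mean level and of -0.25 with the length of the principal transcript, as a description over genes measured in the same 4 libraries.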
